A study of Drosophila melanogaster with 4 samples.

Results

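The peaks described here are those of GFP-tagged Ultraspiracle (USP) in a window of 60 kb around InR, the insulin receptor gene of Drosophila melanogaster, on chromosome arm 3R from 17390000 to 17450000 of FlyBase release 5. The window held 10 peaks, out of 304 on 3R, 1397 on the 6 major arms (X, 4, 2L, 2R, 3L and 3R) and 1540 in the deposited list. A peak was a member if it overlapped the window. The locus was selected on the authors' peak scores, so scores, widths, counts and ranks are given as a description and none was tested.

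The series held 2 ChIP and 2 Input libraries from whole embryos aged 0 to 12 h, fixed in 1.8% formaldehyde for 15 min. All 4 libraries came from the strain labelled USP-GFP, with the genotype PBac{y[+]-attP-3B}VK00033 and a transgene of the genomic coding region of USP. The ChIP libraries were pulled down with a rabbit antibody against GFP, and the Input libraries were input DNA, per the labels. The labels do not say whether untagged USP was also present, nor whether replicates came from separate collections, and their collection step names another stock, y; bw cn sp. A collection of whole embryos over 12 h mixes stages and tissues, so a peak cannot be placed in 1 of them.

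USP is a nuclear receptor and the Drosophila counterpart of the vertebrate RXR proteins. It pairs with the ecdysone receptor EcR, and the pair binds DNA and responds to the moulting steroid 20-hydroxyecdysone. InR encodes the receptor tyrosine kinase for the insulin-like peptides. It acts through chico, an adaptor protein, phosphoinositide 3-kinase and Akt to promote growth and to hold back the transcription factor foxo. Steroid and insulin signals jointly set body size in the fly.

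The 10 peaks formed 1 group at the higher-numbered end of the window, made of a pair of strong peaks and 8 weaker ones. The strongest peak lay at 17439999 to 17444527, was 4.53 kb wide and had a score of 167.22. The other strong peak lay at 17430790 to 17433163, was 2.37 kb wide and had a score of 163.19. These were the highest and the next highest score among the 304 peaks of 3R, and ranks 12 and 14 among the 1397 arm peaks. The score is the authors' own value for each peak and is used only within this list.

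The weaker peaks were mostly narrower than the median arm peak and mostly near the low end of the list's scores. The most prominent lay at 17438860 to 17439875, scored 23.3 and was 1016 bp wide, and it ended 123 bp before the strongest peak. The other 7 had scores of 8.53 to 11.78 (median 9.84) and widths of 201 to 376 bp (median 290 bp). All 7 scores were under the median of the arm peaks, 12.86, and 4 were under the lower quartile of 10.02. All 7 widths were under the arm median of 386 bp, but only 3 were under the lower quartile of 266 bp.

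Going along the chromosome, the group opened with a peak at 17423585 to 17423960 (score 9.84) and another at 17424445 to 17424646 (score 8.53). After 5.19 kb without a peak, a further weak one at 17429837 to 17430037 had a score of 9 and stood 752 bp before the 2.37 kb peak. Its width of 201 bp was the smallest on the arms, where 38 peaks had it.

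A peak at 17433330 to 17433641 (score 11.78) followed the 2.37 kb peak after 166 bp. The space up to the strongest peak then held weak peaks at 17437527 to 17437776 (score 10.02) and 17438518 to 17438808 (score 10.22), and the peak of score 23.3. The last member, at 17444597 to 17444886 (score 9.72), began 69 bp beyond the end of the strongest peak. Each strong peak thus had a weak peak within 1 kb on either side.

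**Figure D1:**
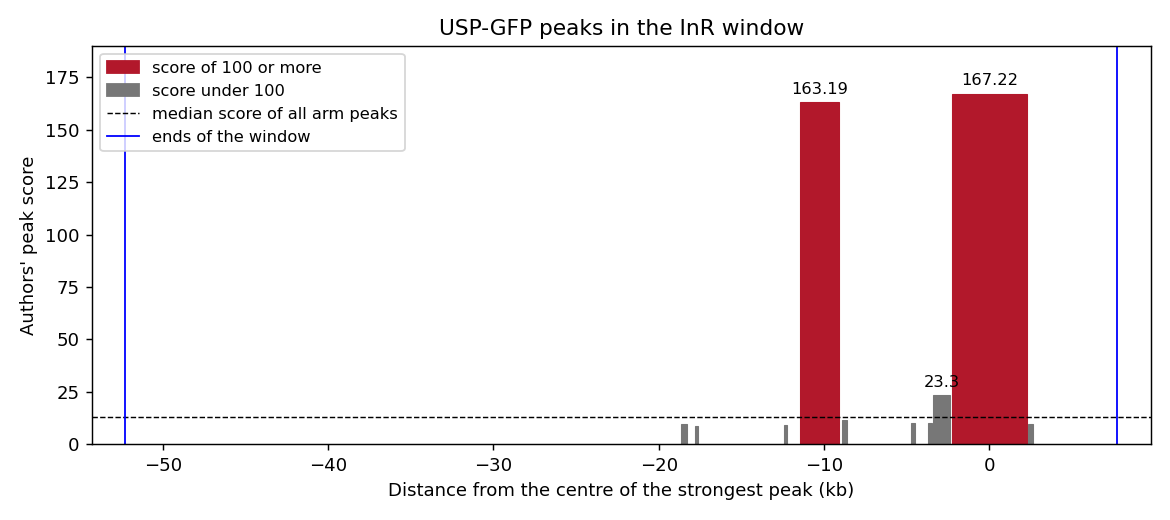
Peaks of USP-GFP in the InR window, with distance in kb from the centre of the strongest peak across and the authors' peak score up. Bars are single peaks drawn to their width, red for a score of 100 or more and grey below it. Both red bars (163.19 and 167.22) stand far above the 8 grey ones (8.53 to 23.3), and no bar lies in the 33.6 kb at the lower-numbered end of the window.

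The strong peaks had close scores and unlike widths. Their scores differed by 4.03, a ratio of 1.02, while the widths of 4529 and 2374 bp had a ratio of 1.91. The 4529 bp peak was the widest on 3R and had rank 11 for width among all arm peaks, and the 2374 bp peak had rank 36. Among the 31 peaks scoring 100 or more on the arms, whose median width was 2693 bp, they took width ranks 9 and 21. No error can be put on either score, since the list gives 1 value per peak and none per library.

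Wider peaks of this list had higher scores, so each width was also set against the width that a line through all arm peaks gave at the same score, fitted on log10 scales. The strongest peak was 1.22 times as wide as the line gave, and the other strong peak 0.652 times. Around the line, arm peaks had a residual SD equal to a factor of 1.46. The strongest peak lay within 1 SD of the line and the other strong peak slightly more than 1 SD below it. The peak of score 23.3 was wide for its score, at 1.55 times the line. The 8 weaker peaks together had a median of 0.895 times the line, and 6 of them were below it.

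**Figure D2:**
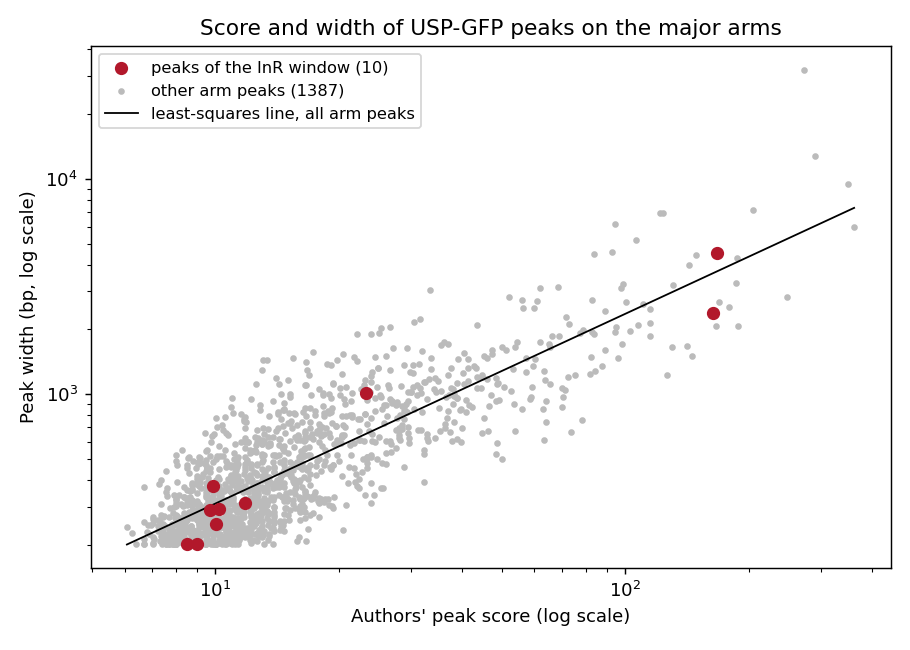
Width in bp against the authors' peak score for all 1397 arm peaks, both on log scales, with the 10 peaks of the InR window in red and all others in grey. The line is a least-squares fit over all arm peaks. The pair of red points at the right (4529 and 2374 bp) lie on either side of the line, and 7 red points gather at scores under 12.

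The step from the strong peaks to the rest was large. The lower of the strong scores, 163.19, was 7.0 times the next score in the window, 23.3, and 16.4 times the median of the 8 weaker peaks, 9.93. No member had a score between 23.3 and 163.19. A score of 100 or more was reached by 2 of the 10 members, where 2.22% of arm peaks reached it. A width of 1 kb or more was reached by 3 members, against 14.1% of arm peaks. Scores below the arm median were found in 7 members, against 49.9% of arm peaks. Because the locus was chosen for its scores, nothing is read from these shares.

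Spacing within the group was tight. The 9 gaps between neighbouring members ran from 51 bp to 5.19 kb with a median of 484 bp, against a median of 11.2 kb for the 1391 gaps on the arms. The 9 leave out the gaps on either side of the group, of 247 and 17.8 kb, while the arm gaps include such gaps. Nothing is therefore read from the difference in medians. Of the 9 gaps, 5 were 500 bp or shorter. The gap of 51 bp, between the peaks of score 10.22 and 23.3, was 1 bp more than the shortest gap on the arms, 50 bp. Another member lay within 500 bp of 8 of the 10 members, where 39.2% of arm peaks had such a neighbour. The count of 10 therefore changed with the distance over which peaks were joined.

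When peaks within 500 bp were joined, the 10 became 5 intervals. The strongest peak and 3 weak neighbours made 1 interval of 6.37 kb, from 17438518 to 17444886, of which 96.2% lay under listed peaks. The 2.37 kb peak and the weak peak beyond it made an interval of 2.85 kb, from 17430790 to 17433641. Joined within 2 kb, 3 intervals remained, of 1.06, 3.81 and 7.36 kb, with 5.19 kb and 3.89 kb between them. The strong peaks stayed in separate intervals under both distances.

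The centres of the strong peaks were 10.3 kb apart, and 6.84 kb separated their facing edges. That space held 4 weaker peaks, which covered 27.3% of it. From the start of one strong peak to the end of the other, 13.7 kb held 6 peaks and was covered to 63.9%. Outside it lay 3 members at lower coordinates and 1 at higher coordinates. The strong pair made up 6903 of the 9841 bp covered by all members, or 70.1%.

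Peaks took up only part of the window. The first to the last member spanned 21.3 kb, from 17423585 to 17444886, which was 35.5% of the window, and members covered 46.2% of that span. Over the whole window, coverage was 16.4%, against 0.768% for arm peaks over the summed spans of the arms. Cut into 6 bins of 10 kb, the window had no peak in the first 3 bins, 7.41% coverage in the fourth, 42.8% in the fifth and 48.2% in the sixth. The 9.84 kb covered was 5.48% of all bases under peaks on 3R, from 3.29% of the peaks of that arm.

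Peak-free sequence lay on both sides of the group. The nearest peak at lower coordinates, outside the window, was at 17175713 to 17176265 (score 14.61), 247 kb from the first member. Gaps wider than this made up 11.1% of those on the arms. On the other side, the next peak was at 17462637 to 17463334 (score 27.98), 17.8 kb from the last member, and 44.9% of arm gaps were wider. Neither edge of the window cut a peak.

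Windows of the same length laid end to end along these arms, in step with this one, numbered 1955, of which 622 held a peak. By its number of peaks the InR window had rank 9, level with 1 other window, and 0.512% of windows held 10 peaks or more. By covered bases it had rank 15, and by its highest score rank 11. By its second highest score, 163.19, it had rank 2. These ranks depend on how windows are laid. In windows of 30 kb about the same centre, which leave out the strongest peak, the ranks were 36 by number, 40 by covered bases and 164 by second score. Windows of 30 kb centred on the peaks, a placing chosen after seeing the data, gave 9, 10 and 2. With the InR window kept in place and the other 60 kb windows shifted by 30 kb, the rank by covered bases was 9. Among scores above the arm median the rank by number was 36. On 3R alone, with 461 windows, it had rank 1 by either score and rank 2 by number of peaks and by covered bases. Windows with a peak had a median of 1 peak and 688 bp covered, against 10 peaks and 9841 bp in the InR window.

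**Figure D3:**
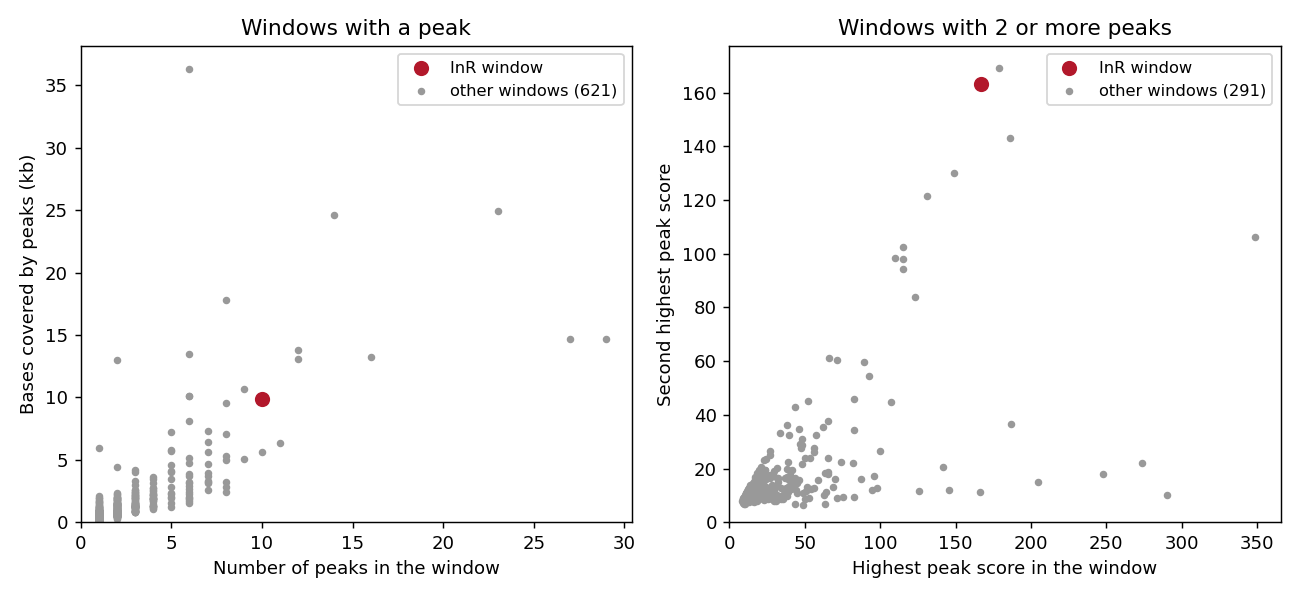
The left plot gives kb covered by peaks against number of peaks for the 622 windows with a peak, and the right plot the second highest against the highest authors' score for windows with 2 or more peaks. The InR window is red. It lies at 10 peaks and 9.84 kb on the left, with 14 windows above it in covered length, and on the right at 167.22 and 163.19, where 1 window has a higher second score.

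In order of covered bases, the neighbours of the InR window differed in how coverage was shared among peaks. The 3 windows just above it were on 2L from 5269798 to 5329798 (10.6 kb covered), on 2L from 2149746 to 2209746 (10.1 kb) and on 2R from 6049811 to 6109811 (10.1 kb). The 3 just below were on X from 18530019 to 18590019 (9.57 kb), on 2R from 6109812 to 6169812 (8.08 kb) and on 3R from 2209747 to 2269747 (7.28 kb).

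In the InR window the median score was 10.12 and the median peak was 301.5 bp wide. In the 6 neighbours, median scores were 10.14 to 61.3 and median widths 633 to 2037.5 bp. The InR window reached 9.84 kb of coverage, between 7.28 and 10.6 kb in the neighbours, with more peaks, 10 against 6 to 9, most of them short. Its 2 widest peaks still made up 70.1% of that coverage, inside the range of 51.8% to 82.2% in the neighbours. The second score of the InR window was 7.0 times the next score. That ratio was 7.33 in the 2R window starting at 6109812 and 1.02 to 2.14 in the other 5.

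Peaks with a score of 100 or more occurred at least in pairs in 7 windows. By the second score the order was the 2R window at 6049811 to 6109811 (169.29), the InR window (163.19), then the 2R windows at 15109962 to 15169962 (143.16) and 6109812 to 6169812 (129.94). The remaining 3 had second scores of 121.46 (3L, from 5569803), 106.09 (2L, from 6049811) and 102.63 (3R, from 9589870). Both 2R windows near 6.1 Mb hold parts of 1 group of peaks that the window edge cut. On X, a window edge fell between strong peaks at 1834460 to 1847262 (score 290.54) and 1863685 to 1870628 (score 123.4). Neither X window is therefore among the 7, which depend on how windows are laid.

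**Figure D4:**
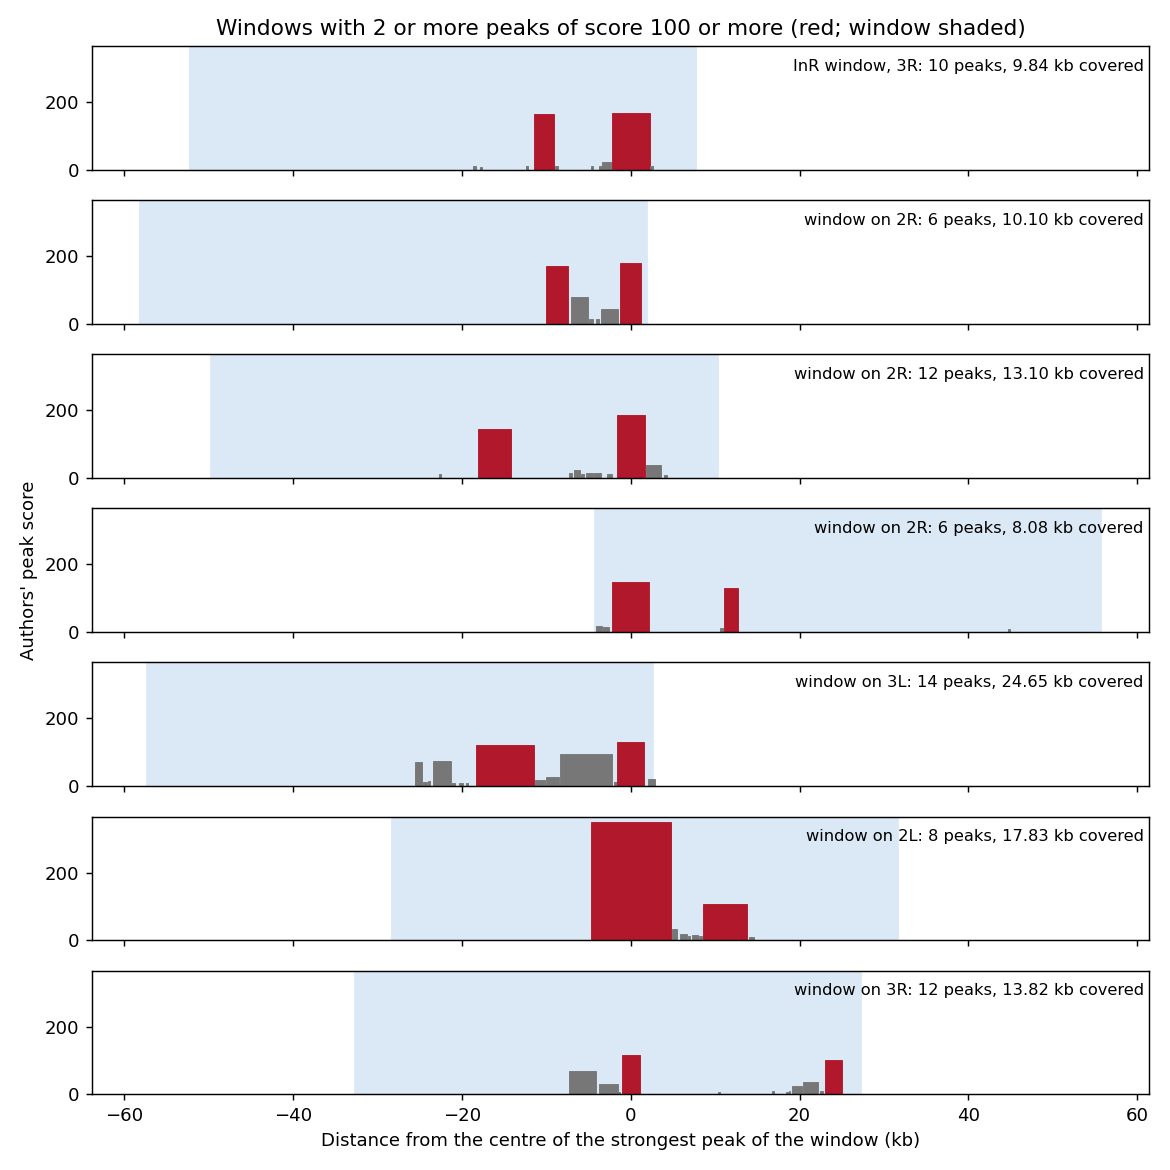
Peaks of the 7 windows that hold 2 or more peaks of score 100 or more (red), the InR window at the top, with distance in kb from the centre of each window's strongest peak across and the authors' peak score up. Grey bars are peaks of lower score, and the shaded band is the window. Space between the red bars is mostly empty or filled by low bars at InR, while in the 3L window (second score 121.46) higher bars fill it. Peaks also covered little of that space in the 2R windows from 15109962 (28.9%) and 6109812 (4.51%), against 27.3% at InR.

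Over the arms, 7 pairs of successive peaks with a score of 100 or more had centres less than 20 kb apart. The strong peaks of the 3R window from 9589870, and the X peaks from 1834460 and 1863685, lay farther apart and were left out. On 2R, successive pairs from 6097836 to 6126750 share peaks, so the 7 pairs are not all separate loci. No error is known for any of these scores. The InR pair had the most similar scores of the 7, at a ratio of 1.02, against 1.06 to 3.29 in the other 6. Its width ratio of 1.91 lay inside the range of the others, 1.06 to 2.67. In centre distance it took place 3 from the closest, 10.3 kb against 6.18 to 16.1 kb. Peaks covered 27.3% of the space between the InR pair, against 4.51% to 93.0% in the others. The lowest of these was the 2R pair from 6111882 to 6126750, and the highest the 3L pair from 5608767 to 5628758.

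Weak peaks next to a strong one were found elsewhere as well. Both InR peaks had 2 weaker peaks within 1 kb of their edges. Over all 31 peaks scoring 100 or more on the arms, this number was 0 to 3 with a median of 1, and 12 had at least 2. Within 5 kb, the strongest InR peak had 4 weaker neighbours and the other strong peak 3, against a median of 2 over the 31. Strong peaks without a weaker one within 5 kb numbered 6.

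The gene table at hand is of Release 6, another build than that of the peak list, and its coordinates were not used. In its gene order, InR stands between CG15498, a gene with no name beyond its annotation symbol, and E2f1, which encodes an E2F transcription factor of the cell cycle. The noncoding RNA genes lncRNA:Irar and lncRNA:CR44034 lie inside the span of InR. Which of the 10 peaks falls on a promoter, exon or intron of InR, or nearer to E2f1, was not determined, and the placing of InR in this window was not checked against an annotation of release 5. Sequence under the peaks was not used here, so no receptor motif was searched.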

How the data were processed

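Peaks of USP-GFP ChIP-seq were read from 1 deposited list with positions in FlyBase release 5 and MACS given as its source, per the file headers. BWA, MACS2, CASAVA (versions 1.7.0.3 and 1.7.0.2) and the build BDGP5 are listed in the submitters' processing notes, with no settings. How the authors defined the deposited score, which libraries they called peaks on and whether these were pooled are not given in the sources used here. Without values per library, sequencing depth and replicate error are unknown. Score and width come from the same calls. The peaks described were all those overlapping the window. Coordinates count from 1. Widths, gaps, coverage and window ranks were computed with Python 3.11.15, numpy 2.4.6 and pandas 2.3.3, after the functions were tested on simulated data. Windows ran end to end from the first to the last peak of each arm, and a peak on a border counted in both windows, with its bases split. Every peak of the window is named or counted, as are the nearest outside it, with 3 windows above and 3 below in covered bases, and windows with a pair of strong peaks. The members, and the bounds of 100 for score and 20 kb for pairs, were chosen with earlier results of these data known. Planned descriptions of gene features, motifs, insulin pathway genes and ecdysone response genes were not run, for want of release 5 annotation or sequence.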

Additional observations from a re-analysis of the deposited data

How the results depend on the processing

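Of 42 values under alternatives, 32 stayed close to the reported value and 10 moved. For counts, shares and ranks, close means within 1.5 times the reported value. Widths relative to the line all stayed within a factor of 1.46 of the reported value, which is the residual SD of the line. Counted after joining within 500 bp, within 2 kb, or among scores above the arm median, the 10 peaks became 5, 3 and 3. Coverage of the window was then 17.9%, 20.4% and 13.2%, where joining can only raise it and leaving out peaks can only lower it. The rank by number of peaks was 15 after joining within 500 bp, and 36 both among scores above the median and in windows of 30 kb about the same centre. The rank by covered bases was 9 with the other windows shifted by 30 kb and the InR window kept in place. It was 40 in the 30 kb windows. The rank by second highest score was 1 after joining within 500 bp and 164 in the 30 kb windows, since that window, from 17405000 to 17434999, leaves out the strongest peak. Windows of 30 kb centred on the peaks, chosen after seeing the data, gave ranks of 9, 10, 13 and 2 by number, covered bases, highest and second highest score. These ranks were not planned, are counted among the 42 values, and are all among the 32 that stayed. The rank by highest score stayed between 11 and 16. No paired analysis was possible because the list gives no values per library, so no library could be left out either. Sequencing depth is unknown, so whether further weak peaks were missed in the empty part of the window cannot be judged.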
